A study of Pyrus communis with 6 samples.

Results

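The probes described here are those of a pear oligonucleotide array whose identifiers begin with DITK. The array carried 69 of them among 21681 probes besides controls, each printed as 2 spots. A DITK probe was kept where a share of at least 0.5 of its spots was marked well above background on 3 or more of the 6 arrays, and 55 of the 69 met this. The deposited files do not pair DITK identifiers with genes, and none of them matched the reference gene table of the pear assembly drPyrComm1.1. The probes are therefore named by their identifiers, and no function or sequence is given for any of them.

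RNA came from the receptacle of European pear (Pyrus communis) flower buds, 1 week before full bloom, in 2010. The receptacle is the floral axis on which the other flower organs sit, and in pears it contributes to the edible flesh. The comparison is of 'La France', a cultivar, with 'Giant Laf', a bud mutant of it, on 3 arrays each. A bud mutant starts as a somatic mutation in 1 shoot and is kept as a line by grafting, so the lines are closely related clones. Receptacles were isolated by laser microdissection, and the sources used here do not give how many trees were sampled. The labels name no treatment, and the trees of both groups had standard orchard care. Each p-value below measures the spread between these arrays, which the series design calls biological replicates. The labelled tissue could not be checked against marker genes, since no probe here carries a gene name.

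Signal is given throughout as a level, the log2 processed signal of a probe minus the 75th percentile of all probes on the same array. That percentile was between 799 and 1639 signal units. The 3 Giant Laf arrays and La France replicate 1 were on slide 1, and La France replicates 2 and 3 on slide 2. Slide and cultivar can therefore be separated only through La France replicate 1. No DITK spot was saturated and none carried an outlier mark. Each array had 54 to 58 of the 69 DITK probes well above background, or 78.3% to 84.1%, where the share over all probes was 73.9% to 77.2%.

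Detection of the DITK probes was nearly all or none. On all 6 arrays 54 were well above background, 9 were on none, and 6 lay between. The share on all 6 arrays was 78.3%, against 71.2% of all probes. The DITK83 identifiers, of which 27 were printed, had 23 kept. Of the 42 DITK913 identifiers 32 were kept. The files do not say what these numbers stand for.

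The 1 probe kept with exactly 3 arrays, just inside the rule, was DITK91325. Its level was -6.41, -6.79 and -6.13 in Giant Laf and -6.37, -5.91 and -6.50 in La France, with replicates 1 to 3 in order here and below. On each array where it counted, 1 of its 2 spots carried the mark. Its cultivars overlapped, and the values sit at the edge of detection.

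Just outside the rule were DITK8311 and DITK91328R2007a, with 2 arrays each. DITK8311 was marked on 1 of 2 spots on Giant Laf replicate 1 and on La France replicate 3. Its level was -7.28, -6.76 and -6.53 in Giant Laf and -6.67, -8.39 and -5.86 in La France. These values overlapped widely.

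DITK91328R2007a was different in that both of its spots were marked on Giant Laf replicates 1 and 2 and neither on any other array. Its level was -6.65, -5.74 and -6.99 in Giant Laf and -7.43, -8.19 and -8.47 in La France. Every Giant Laf array thus lay above every La France array. The La France signal was not well above background, so the ratio, 2.86-fold higher in Giant Laf, rests on readings near background. It compares the Giant Laf mean over 3 arrays, of which 2 measured the probe, with the La France mean. La France replicate 1 was raised to -7.26, the lowest level of any probe well above background there. Replicates 2 and 3 lay above the corresponding levels of their arrays and entered as read. The ratio is therefore not a strict lower bound. The probe was not in the test. Its partner of the same stem, DITK91328, was detected on all 6 arrays with a log2 difference of 0.12 (Giant Laf minus La France, SE 0.11).

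DITK91319 gave a signal on a single array. On Giant Laf replicate 3 both spots were marked, at log2 signals of 4.42 and 5.01 before scaling. On the other 5 arrays its spots read 1.09 to 2.21 and none was marked. Its level was -5.28 on that array and -8.28 or lower on the rest. It is the DITK probe with the widest range over the arrays, 3.94, and it was chosen for mention after its values were seen.

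**Figure D1:**
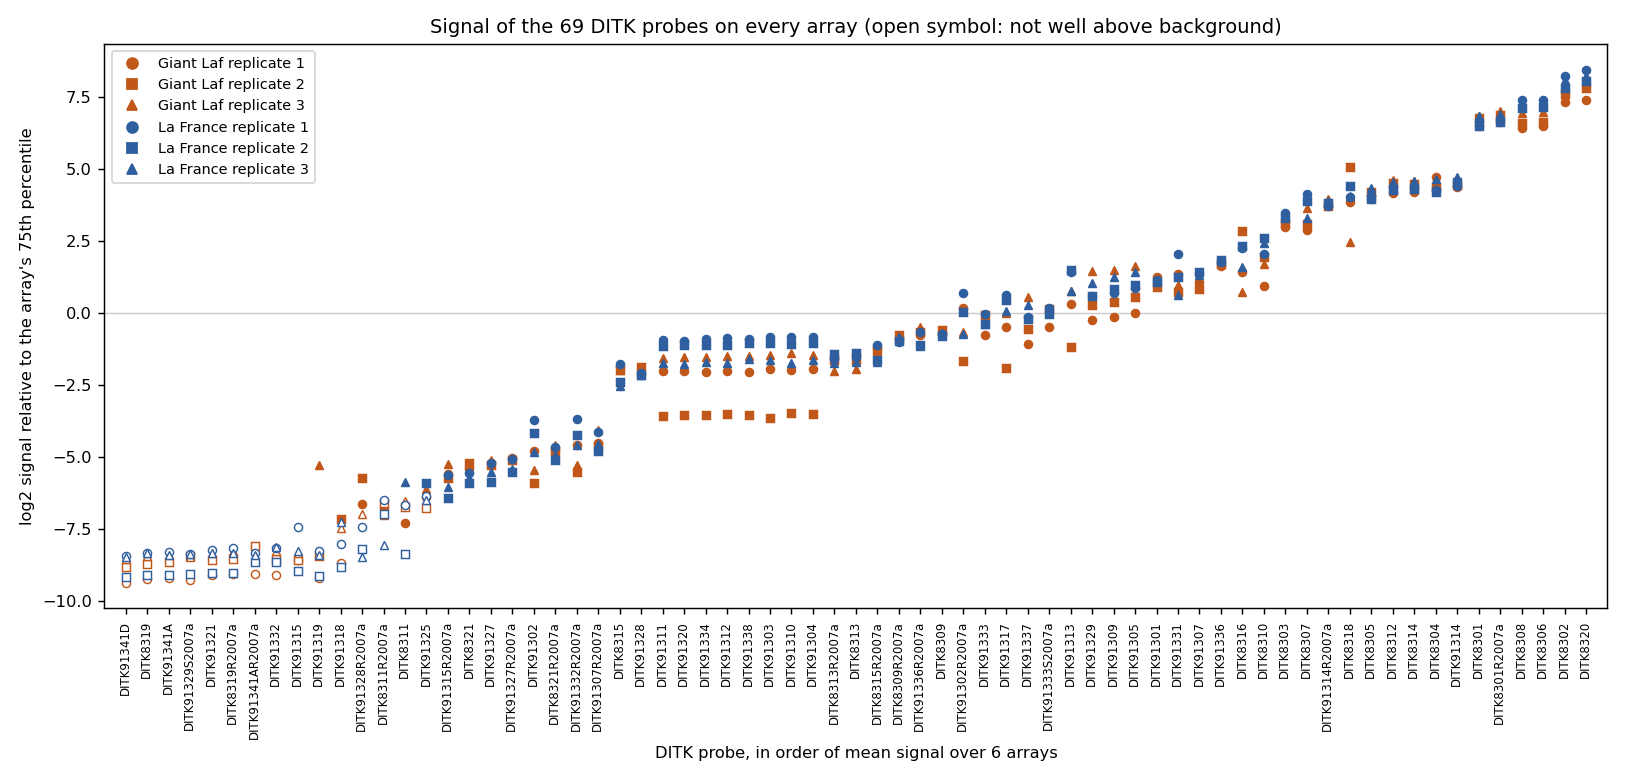
Level of each of the 69 DITK probes on each array (y axis, log2 signal relative to the array's 75th percentile), with probes in order of mean level on the x axis and open symbols where a probe was not well above background. A run of 8 probes at the same level shows Giant Laf replicate 2 lowest in each, between -3.64 and -3.46.

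The mean level of the 55 detected probes ran from -6.35 to 8.02, a median of -0.21 against -1.20 over the 16339 detected probes of the array. The 75th percentile of the array was exceeded by 25 of them (45.5%, against 33.0% of all detected probes). Among the 500 brightest detected probes 10 were DITK probes, 18.2% of the 55, where the 500 make up 3.06% of all. Signal of different probes also depends on their sequence, so these figures describe probes and rank no transcript.

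The 3 brightest were DITK8320, DITK8302 and DITK8306. DITK8320 had a level of 7.42, 7.83 and 8.11 in Giant Laf and 8.46, 8.07 and 8.23 in La France. The Giant Laf array of highest level overlapped with the La France arrays. The lowest levels after DITK91325 were those of DITK91315R2007a and DITK8321. DITK91315R2007a read -5.58, -5.75 and -5.24 in Giant Laf and -5.65, -6.41 and -6.04 in La France, where the first La France array overlapped.

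The DITK probes varied more between arrays than detected probes at large. Over the 3 Giant Laf arrays their median SD was 0.28, against 0.16 for all detected probes, and over the La France arrays it was 0.27, against 0.18. A range of at least 1 log2 unit over the 6 arrays was found in 24 of them (43.6%), against 21.1% of all. The 2 spots of a probe, in contrast, lay close together, with a median gap of 0.063 over the detected DITK probes. The range was wider in the DITK913 probes, with a median of 1.64, than in the DITK83 probes, with 0.59, and no test of this was made. The DITK913 probes include the DITK91303, DITK91313, DITK91305 and DITK91302 groups described below, with ranges of 1.63 to 2.81. Their median rests on these repeated profiles.

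Much of this variation was shared within a few sets of probes with near-identical profiles. Over the 6 arrays, 80 of the 1485 pairs of detected DITK probes correlated at r of 0.95 or above (5.39%), against 0.515% of all pairs of detected probes. Among the 24 DITK probes with a range of at least 1 it was 52 of 276 pairs (18.8%), against 0.856% of pairs among all 3448 probes of such a range. The mean r over all DITK pairs was 0.15, against 0.0072 over all detected probes. These correlations rest on 6 arrays that share their scaling, and no p is attached to them.

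The DITK probes were sorted into groups whose profiles, after subtracting each probe's own mean, lay within 0.25 log2 units of each other on every array. This width, and the groups, were chosen after the values were seen and are untested. They gave 13 groups with 42 of the 55 probes. A probe that varies little meets this width easily. In the DITK8309 group, with ranges of 0.20 to 0.29, 4979 of the 16339 detected probes lay within 0.25 of the mean profile. For the DITK91303 group it was 16. The count of 42 is therefore no measure of shared variation, and the share of all detected probes that would fall into such groups was not tested. With a width of 0.15 there were 12 groups with 34 probes, and with 0.35 there were 13 groups with 48. Because the grouping read all 6 arrays, likeness of cultivar difference within a group follows from it.

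The largest group had 8 probes: DITK91303, DITK91304, DITK91310, DITK91311, DITK91312, DITK91320, DITK91334 and DITK91338. Their mean levels were between -1.83 and -1.74, and the lowest correlation between any 2 of them was 0.996. For DITK91303, the probe of widest range among the 55 (2.81), the level was -1.96, -3.64 and -1.45 in Giant Laf and -0.82, -1.04 and -1.64 in La France. Giant Laf replicate 2 was the low array, and Giant Laf replicate 3 lay above La France replicate 3, so the cultivars overlapped.

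The low value on Giant Laf replicate 2 was present in both spots of DITK91303, at log2 signals of 6.57 and 6.62 before scaling, where the other 5 arrays gave 8.11 to 9.37. The 8 probes have 16 spots on an array, spread over 463 rows, and no 2 of them lay closer than 7.81 grid steps. The other 7 probes had levels of -3.59 to -3.46 on that array.

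DITK91313 and DITK91317 formed a second group with almost the same profile at a higher level. DITK91313 read 0.31, -1.19 and 0.77 in Giant Laf and 1.43, 1.51 and 0.78 in La France. DITK91317 read -0.50, -1.91 and 0.00 in Giant Laf and 0.63, 0.45 and 0.07 in La France. In both, Giant Laf replicate 2 was again lowest, and the cultivars were set apart by a narrow margin at the replicate 3 arrays. At a width of 0.35 these 2 and the 8 probes merged into a single group of 10. Outside the DITK probes, 6 others of the array lay within 0.25 of the mean profile of the 8, and the same 6 lay within 0.25 of that of the 2. The name of 1 of these 6 has the form of a public sequence record, and the files do not say whether any of these probes share a target.

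A group of 4, DITK91305, DITK91309, DITK91329 and DITK91337, had another profile. DITK91305 read -0.01, 0.55 and 1.65 in Giant Laf and 0.88, 0.98 and 1.42 in La France. Giant Laf replicate 1 was lowest and Giant Laf replicate 3 highest in each of the 4, so the La France arrays lay within the Giant Laf range. Their log2 differences, -0.37 to -0.24, became 0.0020 to 0.13 when Giant Laf replicate 1 was left out. With Giant Laf replicate 3 left out instead, they were -0.83 to -0.72. The lowest correlation between any 2 of the 4 was 0.991, and with the group of 8 it was 0.35 to 0.42. Another 6 probes of the array that are not DITK probes lay within 0.25 of this profile. As with those near the group of 8, their names include the form of a public sequence record.

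DITK91302 and DITK91332R2007a, whose identifiers share no stem, were alike at r = 0.992. DITK91302 read -4.79, -5.92 and -5.47 in Giant Laf and -3.71, -4.16 and -4.82 in La France. DITK91332R2007a read -4.57, -5.53 and -5.27 in Giant Laf and -3.67, -4.24 and -4.57 in La France. In these 2 it was Giant Laf replicates 2 and 3 that were low, while Giant Laf replicate 1 lay beside La France replicate 3. Correlation with the group of 8 was 0.77 to 0.83.

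DITK8316 and DITK8318 did not meet the width of 0.25 with any other probe, but correlated with each other at 0.934. DITK8318 read 3.86, 5.06 and 2.48 in Giant Laf and 4.03, 4.43 and 4.07 in La France. Giant Laf thus held both the highest and the lowest array, 2.58 apart. This was also the probe least like the mean profile of the other DITK probes (r = -0.62), followed by DITK8313 (r = -0.51). The closest to that mean profile were DITK8303 (r = 0.89) and DITK8320 (r = 0.85).

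**Figure D2:**
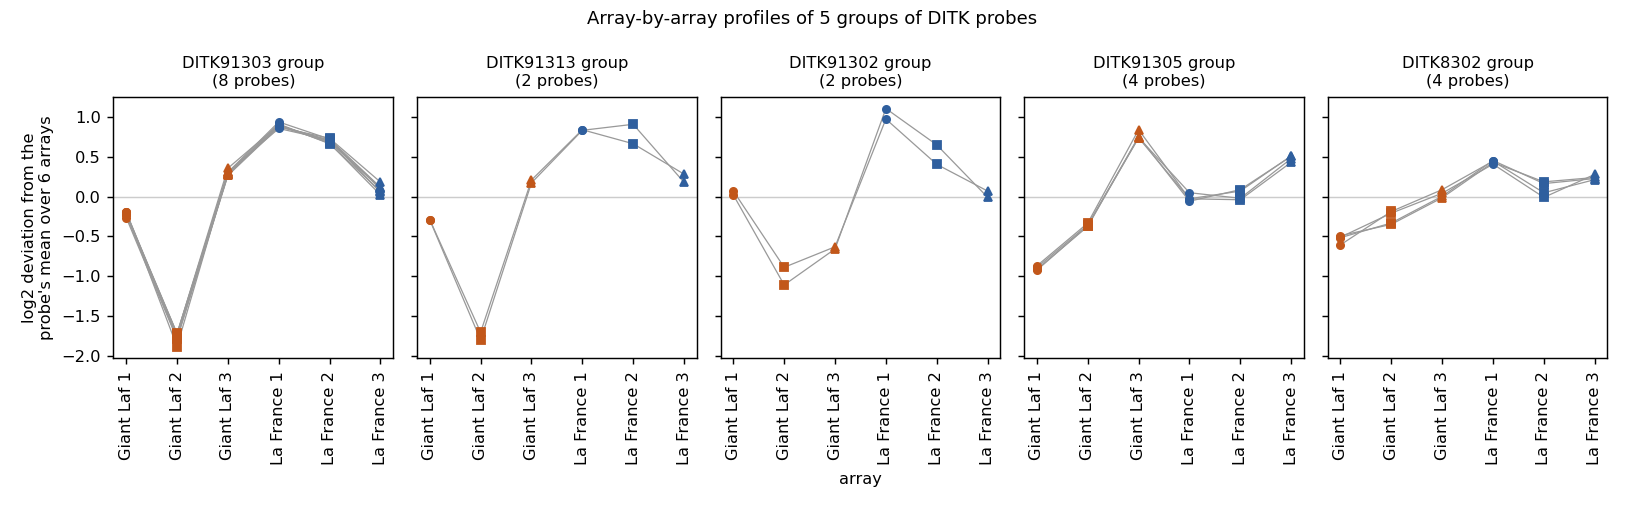
Deviation of each probe from its own mean over 6 arrays (y axis, log2) for 5 groups of DITK probes, with the arrays on the x axis, a line per probe and points in orange for Giant Laf and blue for La France. Giant Laf replicate 2 stands at -1.76 in the group of 8 and at -1.75 in the DITK91313 group, while Giant Laf replicate 1 is lowest in the DITK91305 and DITK8302 groups.

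**Figure D3:**
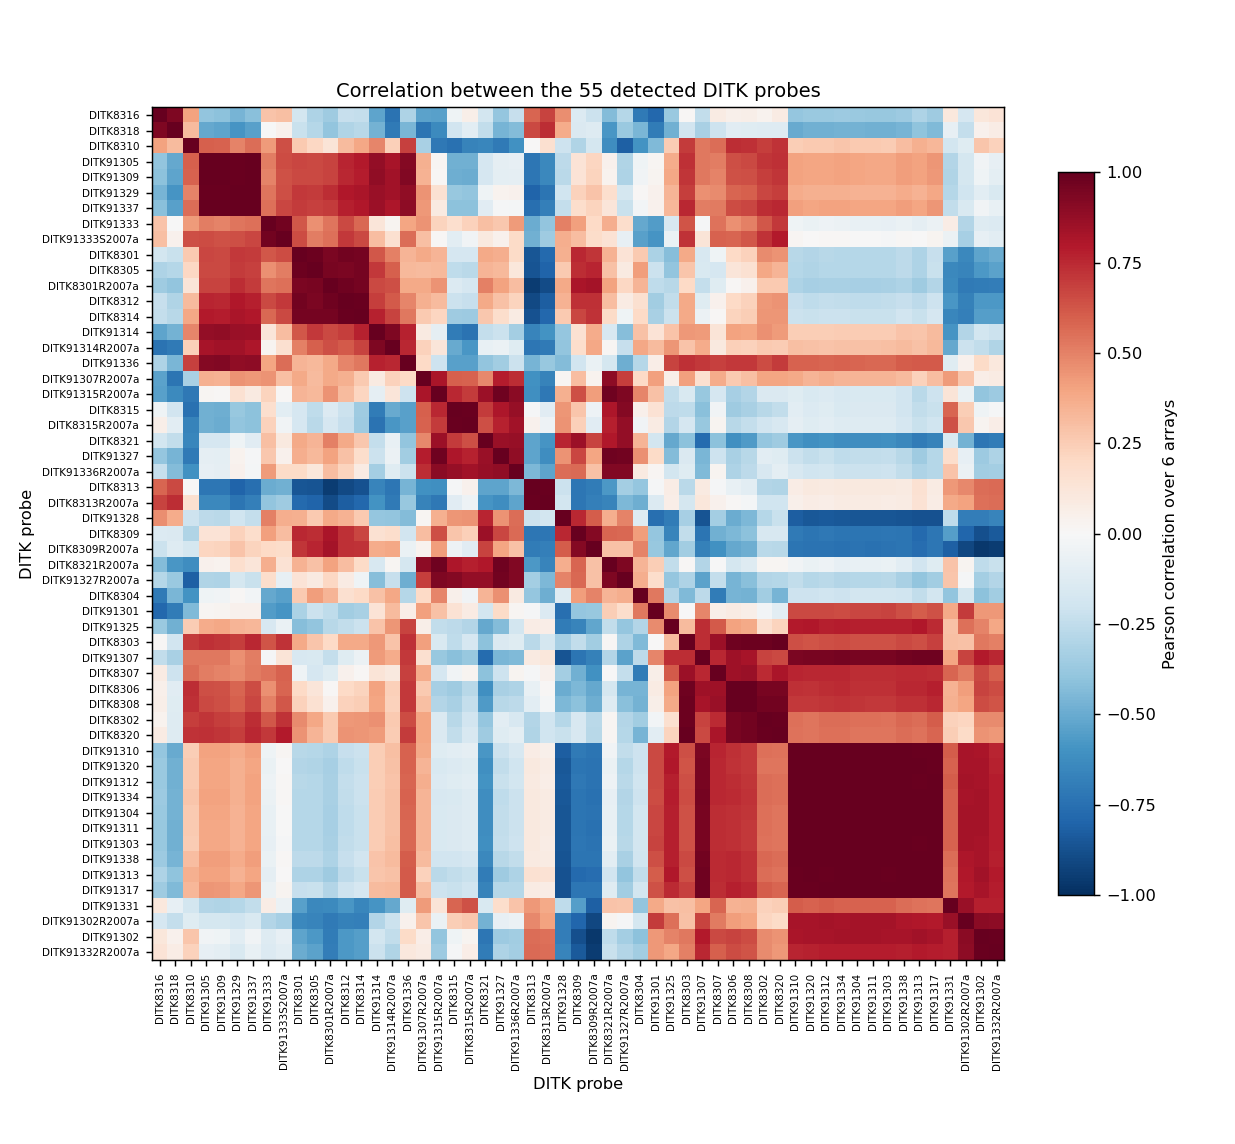
Pearson correlation over the 6 arrays between every 2 of the 55 detected DITK probes (both axes, in the order of a clustering of their profiles; colour scale from -1, blue, to 1, red). The dark red block of 10 holds the DITK91303 and DITK91313 groups, between which no correlation is below 0.987.

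None of the 55 DITK probes passed the test between the cultivars in limma (Benjamini-Hochberg adjusted p under 0.05), and of all 16339 probes tested 0% did. The smallest adjusted p among the 55 was 0.256 in limma, and 0.211 among all probes. Unadjusted p fell below 0.05 for 10 of them, 9 lower and 1 higher in Giant Laf, against 5.36% of all probes lower and 10.6% higher (16% together). With slide as a block there were 5 below 0.05, against 9.62% of all probes. Leaving out 1 array gave from 5 (La France replicate 2, against 9.33% of all probes) to 23 (Giant Laf replicate 3, against 19.1%). With La France replicate 1 left out the split turned, to 3 lower and 7 higher, against 10.5% of all probes in both directions together. Without that array Giant Laf is on slide 1 alone and La France on slide 2 alone. Slide and cultivar then cannot be told apart. In 7 DITK probes the arrays of the cultivars did not overlap, 6 of them lower and 1 higher in Giant Laf, where the background is 8.4% lower and 13.9% higher (22.3% together). This split also turned when La France replicate 1 was left out, to 6 lower and 9 higher, against 29.7% of all probes without overlap. In tissue RNA such as this, fewer cells of a type and less RNA per cell cannot be told apart.

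The log2 difference was below 0 in 37 of the 55 DITK probes (67.3%), against 46.2% of all probes. Its median was -0.23 with quartiles of -0.64 and 0.07, where all tested probes had a median of 0.02 and quartiles of -0.16 and 0.21. The 10 probes of the DITK91303 and DITK91313 groups were picked with their values seen and are among the 11 lowest differences, so leaving them out raises the median by construction. It was then -0.07 over the other 45, with 27 of them below 0. With each profile group averaged into 1 value, 26 values were left, and their median was -0.21. Without Giant Laf replicate 1 the median over the 55 was -0.08, and with slide as a block, or within slide 1 alone, it was -0.22. The DITK83 probes had a median of 0.02 and the DITK913 probes one of -0.34. The DITK913 probes include those 10 and the DITK91302 and DITK91305 groups, so their values are not independent of each other.

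Probes that behave alike are not replicates of a condition, which bears on the count of wide differences. A level at least 2-fold lower in Giant Laf was found in 11 DITK probes, against 0.808% of all probes, and in none was it 2-fold higher, against 1.51%. Of these 11, 10 are the DITK91303 and DITK91313 groups and the other is DITK91302. In 2 of the 11 the arrays of the cultivars did not overlap, and 3 had an unadjusted p below 0.05.

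In the group of 8 the log2 difference was -1.19 to -1.06 (adjusted p from 0.329 to 0.376 in limma). For DITK91303 the means were -2.35 ± 1.14 in Giant Laf and -1.17 ± 0.42 in La France (SD, n = 3 each), a difference of -1.18 with an SE of 0.57 (95% interval -2.55 to 0.19). Without Giant Laf replicate 2 the differences of the 8 shrank to between -0.59 and -0.46. Those of DITK91313 and DITK91317 were -1.28 and -1.19 (adjusted p = 0.307 and 0.308 in limma), and -0.70 and -0.63 without that array. With slide as a block, and within slide 1, the 8 probes differed by -1.53 to -1.39 and the other 2 by -1.47 and -1.43, all against the single La France array of that slide.

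For DITK91302 the means were -5.39 ± 0.57 in Giant Laf and -4.23 ± 0.56 in La France, a difference of -1.16 with an SE of 0.38 (95% interval -2.07 to -0.25, adjusted p = 0.263 in limma). DITK91332R2007a differed by -0.96 with an SE of 0.32 (adjusted p = 0.27 in limma). With normexp background correction these 2 differences were -0.47 and -0.50. With slide as a block, and within slide 1, they were -1.68 and -1.45.

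The DITK probes of smallest p with the lower level in Giant Laf were DITK8306 and DITK8308, both among the brightest and 1.48-fold and 1.47-fold apart. DITK8306 read 6.51, 6.65 and 6.98 in Giant Laf and 7.42, 7.18 and 7.24 in La France. All Giant Laf arrays lay below all La France arrays. The difference was -0.57 with an SE of 0.15 (95% interval -0.94 to -0.20, adjusted p = 0.256 in limma). DITK8308 read 6.44, 6.62 and 6.96 in Giant Laf and 7.41, 7.12 and 7.18 in La France, a difference of -0.56 with an SE of 0.16 (adjusted p = 0.257 in limma).

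Together with DITK8302 and DITK8320 these 2 form a profile group. Within 0.25 of its mean profile lay 241 detected probes, of which 237 are not DITK probes. The deviation of the group from its mean was -0.53 on Giant Laf replicate 1 and 0.43 on La France replicate 1. Over the 500 brightest probes of the array the median deviation on these arrays was -0.30 and 0.14, and their median log2 difference between the cultivars was -0.17. After quantile normalization, which gives each array the same distribution of signals, the differences of the 4 probes moved from between -0.57 and -0.45 to between -0.35 and -0.05. Without Giant Laf replicate 1 they were -0.47 to -0.28, and with slide as a block -0.73 to -0.63. How bright the 237 probes are, and the part of brightness in the difference, was not tested.

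Other DITK probes of high level were outside this group. DITK8301, DITK8301R2007a, DITK8305, DITK8312 and DITK8314 had mean levels of 4.15 to 6.80 and log2 differences of 0.02 to 0.10, with a range over the arrays of at most 0.43. After quantile normalization these differences were 0.12 to 0.30, and after median centring -0.08 to -0.0013. Over the 10 DITK probes among the 500 brightest the median difference was -0.02. Of these 10, 5 were below 0, against 72.6% of the 500. The 10 include the DITK8302 group and probes of the DITK8301 group, so they are not independent readings.

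The DITK probes of smallest p with the higher level in Giant Laf were dim ones. DITK8321 read -5.42, -5.20 and -5.23 in Giant Laf and -5.56, -5.91 and -5.75 in La France, and of the 55 detected DITK probes it was the 1 with all Giant Laf arrays above all La France arrays. It was 1.37-fold higher, a log2 difference of 0.46 with an SE of 0.13 (95% interval 0.14 to 0.78, adjusted p = 0.256 in limma). The largest gap between its 2 spots on an array was 0.52, which is wider than this difference. DITK91315R2007a differed by 0.51 with an SE of 0.23 (95% interval -0.05 to 1.06, adjusted p = 0.336 in limma). With normexp background correction these 2 differences were 0.01 and 0.05, and with slide as a block 0.28 and 0.12. That of DITK91315R2007a was 0.32 without La France replicate 2.

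Besides the probes given so far, those with an unadjusted p below 0.05 were DITK8310 and DITK91307. DITK8310 read 0.93, 1.94 and 1.72 in Giant Laf and 2.04, 2.61 and 2.45 in La France, a difference of -0.84 with an SE of 0.29. DITK91307 read 1.08, 0.83 and 1.24 in Giant Laf and 1.39, 1.43 and 1.34 in La France, a difference of -0.34 with an SE of 0.13. For DITK8310 it was -0.54 without Giant Laf replicate 1 and -0.51 with slide as a block. In both, the cultivars did not overlap, by narrow margins, and the adjusted p in limma was 0.279 and 0.298.

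**Figure D4:**
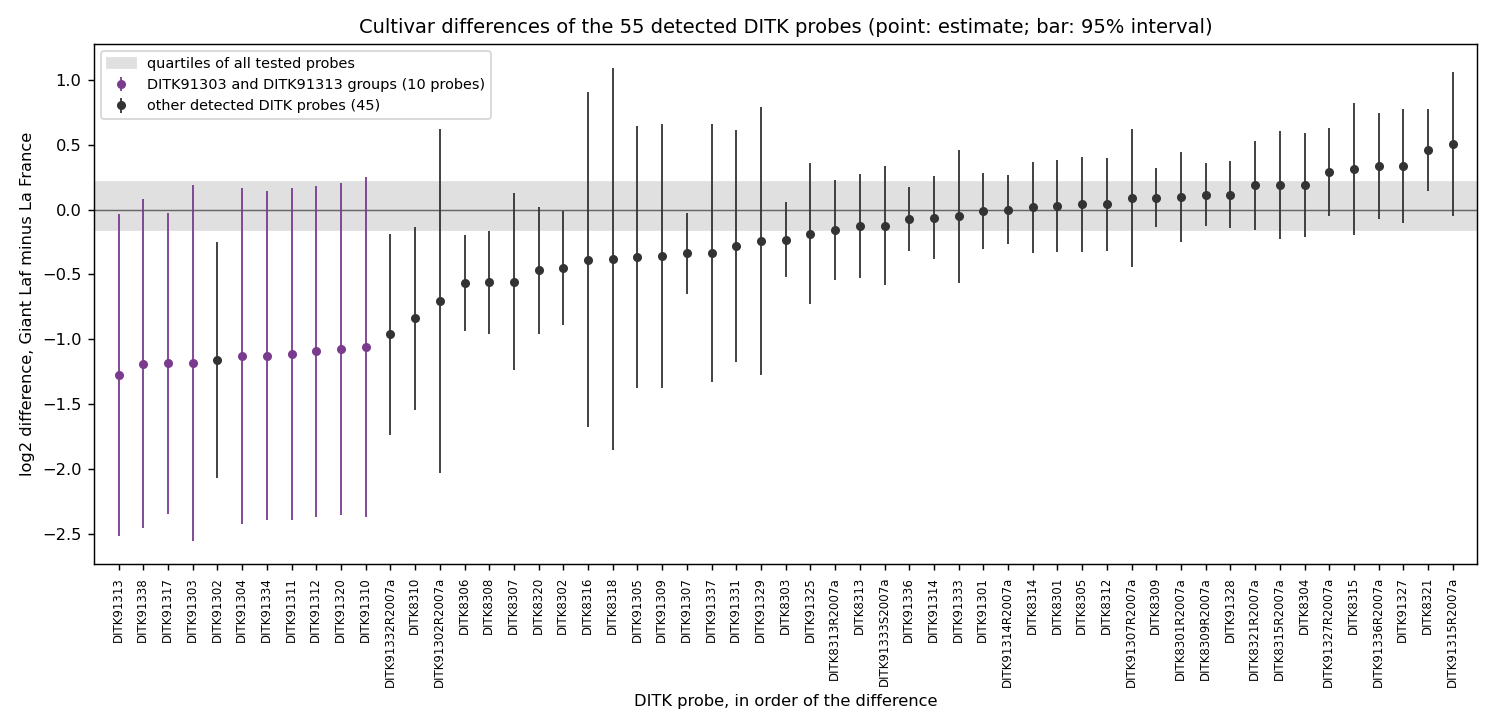
Log2 difference between the cultivars, Giant Laf minus La France (y axis), for each of the 55 detected DITK probes in order of the difference (x axis), with 95% intervals from limma and the quartiles of all tested probes shaded in grey. The 10 probes of the DITK91303 and DITK91313 groups, in purple, fill 10 of the 11 lowest places, and 8 of their intervals reach 0.

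The array that was highest or lowest for a DITK probe was often 1 of the 4 on slide 1. La France replicate 1 was the highest array for 23 of the 55 (41.8%), against 18.1% of all detected probes. These 23 include the 8 probes of the DITK91303 group and DITK91317. Giant Laf replicate 1 was the lowest for 19 (34.5%), against 17.9%. Giant Laf replicate 2 was lowest for 16 (29.1%, against 18.2%), which include the 10 probes of the DITK91303 and DITK91313 groups. Giant Laf replicate 3 was lowest for 4 and highest for 15 (27.3%, against 14.5%), so the 3 Giant Laf arrays did not move together. The median deviation of the 55 probes was -0.17, -0.13 and 0.16 in Giant Laf and 0.16, 0.05 and 0.07 in La France.

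Some DITK identifiers differ from another only by an ending, R2007a in 16 cases and S2007a in 2, which gives 18 stems with 2 probes. Both probes were detected in 11 of these, 1 of them in 4 and neither in 3. Among the 11, the profiles lay within 0.25 of each other in 7, and 9 had differences of the same sign. Neither count was set beside pairs of unrelated probes. The 7 include the DITK8309, DITK91314 and DITK8301 stems, whose probes varied little, with ranges of 0.20 to 0.39. Within 0.25 of the mean profiles of their groups lay 4979, 4735 and 3151 detected probes.

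Where the 2 probes had levels within 1 log2 unit, which was so for 8 stems, their correlation over the arrays was 0.80 to 0.99. DITK8315 read -1.82, -1.97 and -1.97 in Giant Laf and -1.77, -2.41 and -2.52 in La France, and its partner DITK8315R2007a followed it at r = 0.991, 0.69 higher. Both were lowest on the 2 arrays of slide 2.

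In the other 3 the levels were further apart and the profiles less alike. DITK91307 and DITK91307R2007a had mean levels of 1.22 and -4.45 and a correlation of 0.16. Their log2 differences between the cultivars were -0.34 and 0.09. DITK91336 and DITK91336R2007a lay 2.57 apart, correlated at -0.21 and differed between the cultivars by -0.07 and 0.34. DITK91302 and DITK91302R2007a lay 4.45 apart but correlated at 0.903.

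A stem could also be detected by one of its probes alone. DITK91315 and DITK91332 were on no array well above background while their R2007a partners were on all 6. For DITK91329 it was the S2007a partner that was on none, at a mean level of -8.68 against 0.62. The files do not say what the endings mean or on which strand a probe reads.

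**Figure D5:**
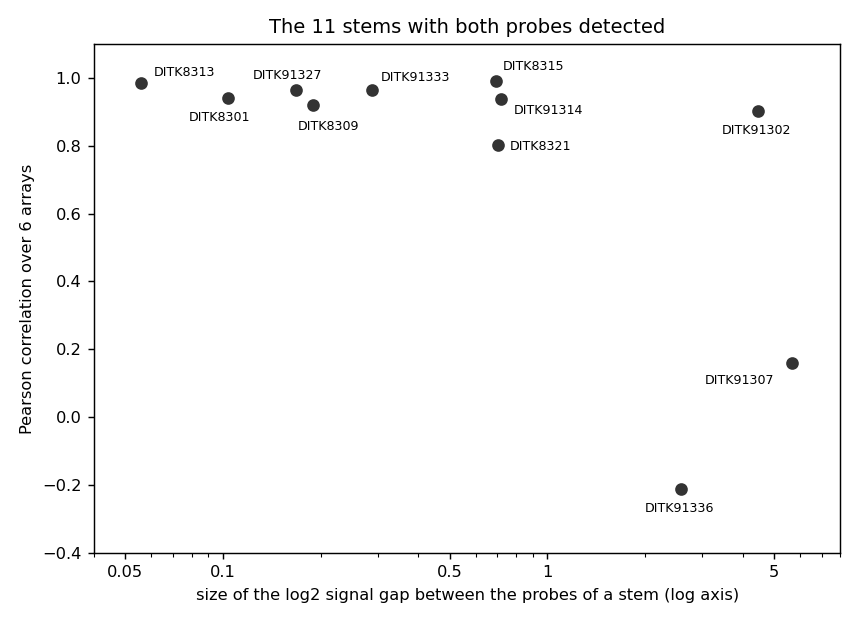
Pearson correlation over 6 arrays (y axis) against the size of the log2 signal gap between the probes (x axis, a log axis) for the 11 stems with both probes detected, a point per stem. The 8 stems with a gap under 1 have correlations of 0.80 or above, and the other 3 have 0.903, 0.16 and -0.21.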

How the data were processed

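RNA from 6 receptacle samples was hybridised, 1 sample per array, in a single colour (Cy3), per the labels' protocols. The authors deposited scanner files of Agilent Feature Extraction 10.7.1.1, whose processed intensity is background-subtracted and detrended within the array, per the file headers. They are not normalized between arrays. A deposited table of log2 values served as an alternative. How it was made is not stated, but its 75th percentile lay between 0.0014 and 0.0045 on every array. It is thus scaled nearly as the levels used here. All 414 of its DITK values lay within 0.001 of the log2 of the probe's mean scanner signal, once a single amount was subtracted for each array. The levels used here are means of log2 signals, so the deposited values are not identical to them. The log2 difference of DITK91315R2007a was 0.514 from the deposited table and 0.509 from the levels. For DITK8302 these were -0.4502 and -0.4495. The column medians of the deposited table, over Giant Laf replicates 1 to 3, were -2.40, -2.37 and -2.45. Over the La France replicates they were -2.47, -2.51 and -2.52.

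The level of a probe is the mean log2 processed signal over its spots, outlier-marked spots left out, less the array's 75th percentile. The 16339 probes kept by the detection rule were fitted together in R 4.3.3 (limma 3.58.1, functions lmFit and eBayes), cultivar as the only term, two-sided, with Benjamini-Hochberg adjustment over all of them. The fit was tested on simulated data. With 6 arrays, their number limits the precision. The files hold no mean-signal column, so normexp (offset 50) used the median signal and its local background.

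The members, rules and alternatives were chosen with earlier results of these data known. Probes were named by rule: the 2 of smallest p per direction, the 3 highest and 3 lowest levels, the 2 widest ranges, those at the edge of detection, the 2 most and least like the mean profile, and pairs of a stem. Others named were chosen after their values were seen.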

Additional observations from a re-analysis of the deposited data

How the results depend on the processing

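Of 20 alternatives, 3 were added after the data were seen: slide 1 alone, profile groups averaged, and the 10 probes of the DITK91303 and DITK91313 groups left out. The count of 0 DITK probes at an adjusted p below 0.05 in limma held in all 20, with a smallest adjusted p of 0.0901, under array weights. At an unadjusted p below 0.05 there were 10, with 16% of all probes. This became 5 with slide as a block (9.62% of all probes), 20 with array weights (26.2%) and 7 with the replicate block (14.7%). With profile groups averaged, 26 values in place of 55, it became 6 (16.0%). Leaving out 1 array gave 5 to 23: 6 when Giant Laf replicate 1 or 2 was dropped (10.2% and 9.505% of all probes), 23 for Giant Laf replicate 3 (19.1%), 5 for La France replicate 2 (9.33%), and 10 for La France replicate 1 (10.5%), of which 3 were lower and 7 higher in Giant Laf, where all arrays gave 9 lower and 1 higher. DITK probes without overlap, 7 with all arrays (22.3% of all probes), were 11 after quantile normalization (21.8%) and 12 after median centring (23.3%). Within slide 1 there were 31 (63.7% of all probes). With 1 array left out there were 10 to 24 (28.0% to 45.2% of all probes), of which 6 were lower and 9 higher without La France replicate 1. With fewer arrays all probes overlap less. The median log2 difference, -0.23, was -0.25 to -0.08 with 1 array left out (-0.0784 without Giant Laf replicate 1) and -0.0708 without the 10 probes. The mean pairwise correlation, 0.15, was 0.24 with normexp, 0.0846 after quantile normalization, 0.0816 after averaging profile groups, 0.25 after median centring 0.22 within slide 1 and 0.117 to 0.175 with 1 array left out. Except where fewer values or arrays show it, the cause was not tested. Median centring moved the median of all probes from 0.02 to -0.07, and the DITK median to -0.33. Of 247 refits of 13 single probes, 246 kept their direction. The other was DITK91305, at 0.0020 without Giant Laf replicate 1 and -0.827 without Giant Laf replicate 3. The 13 include the 10 with an unadjusted p below 0.05 in limma, so a kept direction follows largely from their choice. Probes not among the 13 did turn. The DITK8315 group, at 0.19 to 0.31 with all arrays, was at -0.18 to -0.15 with slide as a block. The replicate numbers were not taken to pair the arrays. The correlation of deviations between arrays of the same number was 0.015, 0.195 and 0.133 for replicates 1 to 3. The highest with an array of another number was 0.191, -0.017 and 0.135. For replicate 2 alone was the same number the higher. For the dimmest DITK probes the low signal over background limits what the difference can show.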
